A study of Mus musculus with 4 samples.

Results

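Loss of the glucocorticoid receptor (GR) from the muscle fibres of lean mice was examined in gastrocnemius, a calf muscle made mostly of fast fibres, by comparing 1 library of lean GRmKO mice with 1 library of lean GRf/f mice. These are 2 of the 4 libraries of the study. All mice were 7-week-old males on the C57BL/6J background, and each library was made from the pooled RNA of 3 mice. All groups, controls included, carried the floxed GR allele Nr3c1 on both chromosomes. GRf/f mice had no Cre. GRmKO mice carried 1 Cre transgene driven by the Acta1 promoter, the promoter of skeletal muscle actin, which is active in myofibres. Lean mice had wild-type leptin alleles. A further pair of libraries, ob/ob GRf/f and ob/ob GRmKO, came from mice that lack functional leptin on both alleles and are obese. It shares no library with the lean pair and is used here only to set the same deletion in other mice beside the lean values.

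GR is a nuclear receptor held in the cytosol by chaperones, and hormone binding moves it into the nucleus. There it binds palindromic response elements and induces genes, many of them feedback regulators, and it also restrains inflammatory and immediate early transcription factors. In skeletal muscle, glucocorticoids are known for breaking down protein, releasing amino acids and opposing glucose use. The floxed segment encodes the DNA-binding domain. Satellite cells, vessels, nerve and connective tissue in the muscle do not use the Acta1 promoter and keep GR.

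The lean GRf/f library held 20757146 expected counts and the lean GRmKO library 19897754, so that 3 counts corresponded to 0.145 and 0.151 CPM (a gene's counts as a share of its library, scaled to the same total in each). The 50 most abundant genes took 45.3% and 45.1% of the counts. Both libraries had the marker pattern of muscle. The 12 myofibre markers summed to 141258 and 135580 CPM, and 0 of them differed by 2-fold. The lean GRf/f library stood apart in another respect, since 17 genes of sperm and spermatids, a list put together after their values were seen, summed to 117 CPM in it and to 0.151 CPM in lean GRmKO, 0.0 in ob/ob GRf/f and 0.096 in ob/ob GRmKO mice. Prm2, which packs sperm DNA, had 499.9 expected counts in lean GRf/f muscle and was listed at 0 in the other libraries. None of the 17 reached 10 counts in both lean libraries, so none enters the counts of genes below. A list of 18 other germ cell genes, also chosen after the data were seen, summed to 20.8, 3.56, 1.89 and 3.62 CPM in lean GRf/f, lean GRmKO, ob/ob GRf/f and ob/ob GRmKO muscle. Of these only Ybx2, an RNA-binding protein of germ cells, was tested and is among the genes called lower, with 144 and 50.5 counts in the lean pair (-1.45) and 21.3 and 57.6 in the ob/ob pair. In all, 36 genes had at least 50 counts in the lean GRf/f library and 5 or fewer in each of the others, and for lean GRmKO, ob/ob GRf/f and ob/ob GRmKO this number was 0, 2 and 3. The part of this RNA in other differences was not tested.

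With 1 library on each side there is no replicate spread, no test and no p-value. Genes with at least 10 expected counts in both libraries and at least 50 in 1 of them were compared by the log2 ratio of their CPM values, and a gene is called higher or lower at a 2-fold difference. Intervals in brackets are exact 95% intervals of the ratio. They cover counting error only and say nothing about the variation between mice. In whole muscle, fewer cells of a type and less RNA per cell cannot be told apart.

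Of 13015 genes with at least 10 counts in both lean libraries, 11526 also had 50 counts in 1 of them. In lean GRmKO muscle, 163 of these were called lower (1.41%) and 195 higher (1.69%). The 2 libraries were alike for most genes. The median log2 change was 0.04, and the 5th and 95th percentiles were -0.51 and 0.63. With TMM scaling, which centres the bulk of genes, the median was -0.01, and 183 genes were called lower and 179 higher. The plot of change against expression shows the calls by abundance. Of 2505 tested genes with a mean of at least 1000 counts over the 4 libraries, a limit chosen after the data were seen, 18 were called lower and 5 higher.

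**Figure D1:**
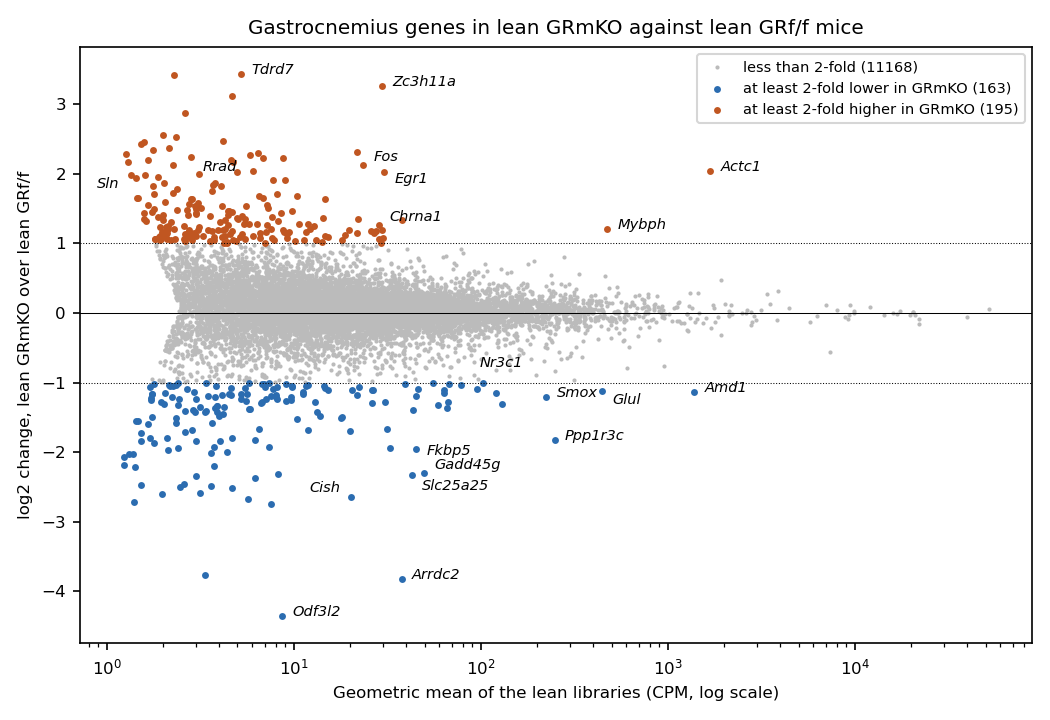
Each point is 1 of 11526 genes, with the geometric mean of its CPM in the 2 lean libraries on a log axis and the log2 change of lean GRmKO over lean GRf/f on the vertical axis. Dotted lines mark 2-fold, the 163 genes called lower are blue and the 195 called higher are orange. Arrdc2 and Odf3l2 lie lowest, and Actc1 stands alone as an abundant gene that was 4.13-fold higher.

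The targeted gene was lower in lean GRmKO muscle but still measured. Nr3c1, which encodes GR, had 2593 expected counts in lean GRf/f and 1333 in lean GRmKO muscle, a log2 change of -0.90 [-1.0, -0.80], or 53.7% of the control level. In the ob/ob pair it had 2134 and 819 counts (-1.38). The value covers the whole transcript, including the part outside the floxed segment and the RNA of cells without Cre, so it does not measure the deletion itself. Nr3c2, the related mineralocorticoid receptor, had 207 and 172 counts in the lean pair, and its interval included no change (-0.21 [-0.51, 0.09]). Of 11 genes for the receptor, its ligand enzymes, chaperones and cofactors, Nr3c1 included, 0 were called in either direction in lean mice. This is near the shares of all genes, 1.41% called lower and 1.69% higher.

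Genes known to be induced by glucocorticoids were mostly lower in lean GRmKO muscle. Of 28 such genes, 7 were called lower and 0 higher, beside 1.41% of all genes called lower, and 23 lay below the median gene. The list's median log2 change was -0.50, beside 0.04 for all genes. Fkbp5 (chr17:28399094-28517527, minus strand; coordinates here are of GRCm38) encodes a co-chaperone that lowers the receptor's affinity for hormone. It had 1843 expected counts in lean GRf/f and 454 in lean GRmKO muscle, and 2218 and 547 in the ob/ob pair. Both GRmKO libraries were thus at about the same low level, with log2 changes of -1.96 [-2.11, -1.81] in the lean and -2.02 [-2.16, -1.88] in the ob/ob pair.

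The other members called lower were Per1, Ddit4, Hif3a, Zbtb16, Glul and Cebpb. Ddit4, which restrains mTORC1, had 1931 counts in lean GRf/f and 738 in lean GRmKO muscle (-1.33), but 545 and 499.8 in ob/ob mice (-0.12). Zbtb16, a transcriptional repressor, went from 1410 to 590 counts in the lean pair (-1.20) and from 1280 to 831 in the ob/ob pair (-0.62). The lean control library was the highest of the 4 for both genes. Cebpb, a transcription factor of acute responses, had 2883 and 1298 counts (-1.09), and Hif3a, an inhibitory member of the hypoxia factor family, 63.2 and 25.0 counts (-1.27). Tsc22d3, which encodes the anti-inflammatory protein GILZ, had 9144 and 4493 counts. Its log2 change of -0.96 missed the 2-fold limit on CPM and passed it with TMM scaling (-1.02). It was at 4904 and 4408 counts in ob/ob mice (-0.15).

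Not every member moved with the list. Pdk4, which turns muscle from glucose to fat by blocking pyruvate dehydrogenase, had 8342 and 6943 counts in the lean pair (-0.20) but 3636 and 7803 in the ob/ob pair, where it was higher in GRmKO mice (1.10). Sgk1, a kinase induced by both corticosteroid receptors, had 6607 and 4306 counts in the lean pair (-0.56). In ob/ob mice, the list had 2 genes called lower and 1 higher, with a median of -0.26, where 2.33% of all genes were called lower and 1.68% higher. The 2 pairs gave the same sign for 19 of the 28 genes. Of the 23 genes negative in lean mice, 18 were also negative in ob/ob mice. Of all genes tested in both pairs, whatever their lean sign, 56.2% were negative in ob/ob mice. Which genes lay low in both can be read from the plot of the 28 genes.

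**Figure D2:**
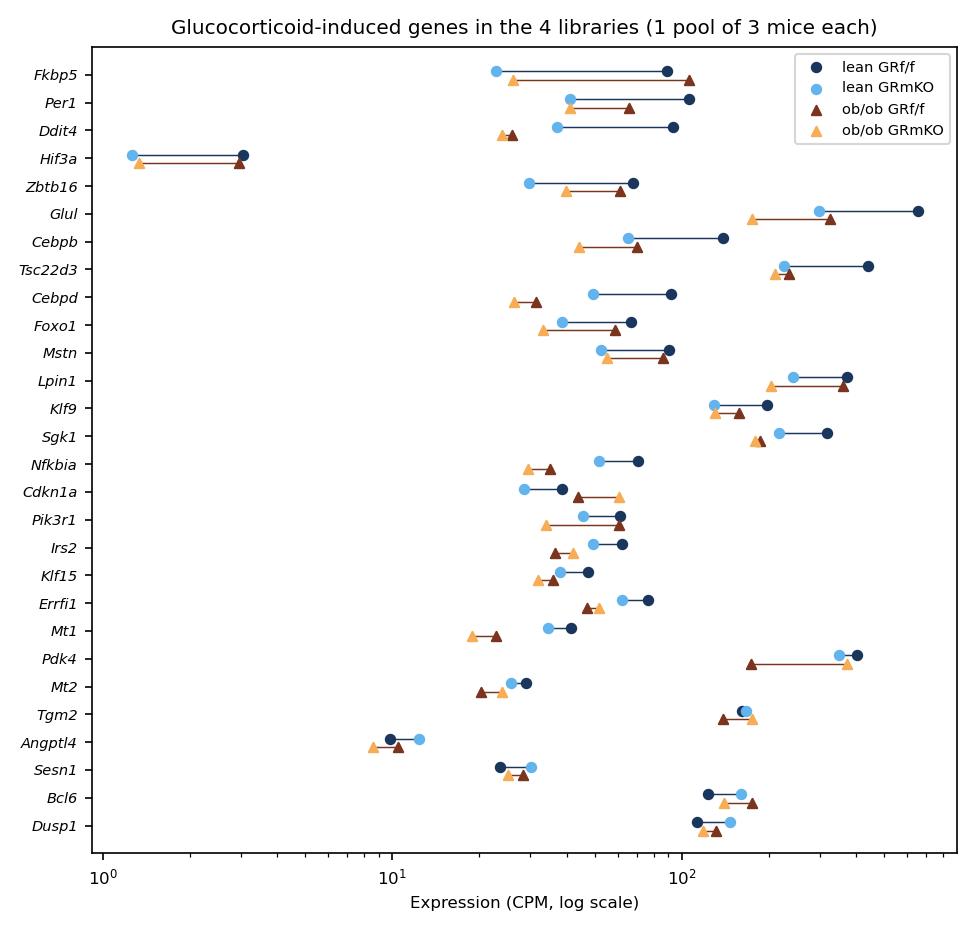
Expression of 28 glucocorticoid-induced genes in CPM on a log axis, with circles for the lean and triangles for the ob/ob libraries, darker for GRf/f and lighter for GRmKO. Genes are ordered by their lean change, from Fkbp5 at the top (-1.96) to Dusp1 at the bottom (0.38), and lines join the 2 libraries of a pair.

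Promoters were searched for the palindromic GR element GNACANNNTGTNC, which reads the same on both strands, in the window from 250 bases before to 50 after each RefSeq start (GRCm38.p6). It was in 39 of the 9158 tested genes that have a promoter in the table (0.426%), in 1 of 125 genes called lower (0.8%) and in 0 of 149 called higher. Of 24 glucocorticoid-induced genes with a promoter it was in 2, Sgk1 and Mt1. The half-site AGAACA, or TGTTCT on the other strand, which overlaps some full elements, was in 14.8% of tested genes, 14.4% of those called lower and 14.1% of those called higher. A match says only that these letters are in the window. The promoters that hold the element are shown for the 2 induced genes and for Slc10a6, the gene called lower, with the element in capitals. Each is the 250 bases before a start, in the direction of the gene.
Sgk1, chr10:21993640-21993889, plus strand, 1 of 6 promoters of the gene: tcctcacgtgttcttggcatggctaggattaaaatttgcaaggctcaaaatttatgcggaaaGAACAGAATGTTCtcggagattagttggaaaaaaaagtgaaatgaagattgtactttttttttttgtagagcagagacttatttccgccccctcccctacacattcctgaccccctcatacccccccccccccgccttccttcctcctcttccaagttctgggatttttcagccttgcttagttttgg
Mt1, chr8:94178839-94179088, plus strand: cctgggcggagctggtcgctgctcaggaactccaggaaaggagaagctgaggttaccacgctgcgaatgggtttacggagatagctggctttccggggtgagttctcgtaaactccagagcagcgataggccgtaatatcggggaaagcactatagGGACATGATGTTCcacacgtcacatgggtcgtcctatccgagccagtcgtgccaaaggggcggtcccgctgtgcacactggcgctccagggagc
Slc10a6, chr5:103629404-103629653, minus strand: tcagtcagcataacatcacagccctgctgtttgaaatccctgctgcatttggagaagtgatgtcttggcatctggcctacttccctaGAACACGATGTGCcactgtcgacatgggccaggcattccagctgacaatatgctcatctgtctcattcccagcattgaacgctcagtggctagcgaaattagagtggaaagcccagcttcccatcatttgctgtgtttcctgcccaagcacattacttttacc

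The element begins 188 bases before the start in Sgk1, 94 in Mt1 and 163 in Slc10a6. Mt1, a metal-binding metallothionein, had 861 and 688 counts in the lean pair (-0.26 [-0.41, -0.12]). Slc10a6, a carrier of steroid sulfates, had 161 expected counts in lean GRf/f, 69.1 in lean GRmKO, 73.0 in ob/ob GRf/f and 70.9 in ob/ob GRmKO muscle. Only the lean control library was high, and the log2 change was -1.16 [-1.59, -0.75] in the lean and -0.04 in the ob/ob pair.

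The largest decreases included genes outside the usual target lists. Arrdc2 (chr8:70835129-70839720, minus strand), an alpha-arrestin, a family of adaptors for the removal of membrane proteins, had 2957 expected counts in lean GRf/f and 199.6 in lean GRmKO muscle. It had 1453 and 100.7 counts in the ob/ob pair. Both GRmKO libraries lay far below both controls, and the log2 change was -3.83 [-4.04, -3.62] in the lean and -3.85 in the ob/ob pair, a lean level of 7.04% of the control. The other 4 tested alpha-arrestins were between -0.47 (Arrdc3) and 0.44. Odf3l2 (chr10:79639526-79645738, minus strand), named for its likeness to proteins of the sperm tail, had 815 and 38.0 counts in the lean pair (-4.36 [-4.87, -3.89]). It had 777 and 55.1 counts in the ob/ob pair (-3.82), whose libraries held 0.0 and 0.096 CPM of the 17 sperm and spermatid genes.

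Kcnf1 (chr12:17172100-17176888, minus strand), a modifying subunit of potassium channels, had 299.8 and 45.1 counts in lean and 109.9 and 19.9 in ob/ob mice, so the 2 log2 changes were alike (-2.67 and -2.46). Stk26, a kinase, had 74.2 and 12.8 counts (-2.47) and Hmga2, a chromatin protein of growing cells, 150.4 and 38.1 (-1.92). Mss51, a mitochondrial protein of muscle, had 1325 and 332 counts in lean (-1.94) and 4151 and 1302 in ob/ob mice (-1.67). In contrast, Cish, an inhibitor of cytokine receptor signalling, had 1047 expected counts in lean GRf/f muscle and 161, 130 and 91.9 in lean GRmKO, ob/ob GRf/f and ob/ob GRmKO muscle. The lean control alone was high, and the log2 change of -2.64 in lean mice stood beside -0.50 in ob/ob mice. Slc25a25, a mitochondrial carrier of ATP-Mg and phosphate, had 1987 and 379 counts in the lean and 659 and 451 in the ob/ob pair (-2.33 and -0.55). Gadd45g, a growth arrest gene, had 2289 and 445 counts in the lean pair (-2.30) and 584 and 199 in the ob/ob pair (-1.55). Among the rest of the largest decreases were Zfx (-2.75), Fignl2 (-2.72), Slc15a5 (-2.60) and Gemin4 (-2.59), which overlaps Glod4 on its strand. All 4 had under 500 counts in the control. Of the 4, only Gemin4 was tested in ob/ob mice (-0.14). It had 159, 25.4, 157 and 143 counts in lean GRf/f, lean GRmKO, ob/ob GRf/f and ob/ob GRmKO muscle. Fignl2 had 74.2, 10.8, 49.96 and 42.9 counts in the same order, so for both genes the lean GRmKO library alone was low. Zfx had 284 counts in ob/ob GRf/f and was listed at 0 in ob/ob GRmKO muscle. Slc15a5 was at 0.954 and 0.286 CPM in the ob/ob pair.

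Some genes that route glucose and pyruvate were also lower. Ppp1r3c (chr19:36731731-36736653, minus strand) encodes a subunit that brings protein phosphatase 1 to glycogen. It had 9674 expected counts in lean GRf/f and 2625 in lean GRmKO muscle, and 11022 and 5124 in ob/ob mice. Both GRmKO libraries were below both controls, with log2 changes of -1.82 [-1.88, -1.76] and -1.10. Pdp1, the phosphatase that switches pyruvate dehydrogenase on, had 746 and 221 counts in lean (-1.70) and 923 and 423 in ob/ob mice (-1.13). Pcx, which carboxylates pyruvate, had 2322 and 1083 counts in the lean pair (-1.04). Slc2a3, a glucose transporter, had 158 and 42.5 counts (-1.84). Of 19 fasting fuel-switch genes, 1 (Pdp1) was lower and 0 higher, beside 1.41% and 1.69% of all genes. Of 21 genes of insulin signalling and glucose uptake, 0 were called. The median log2 changes of the fuel-switch and insulin lists were -0.10 and -0.12, and 13 and 17 of their members lay below the median gene. Of 14 lipogenic enzymes, 0 were called, and Scd1, a fatty acid desaturase, had 16503 and 9099 counts (-0.80).

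Transcripts for the regulated steps of polyamine synthesis were lower in lean GRmKO muscle. Of 11 tested genes of polyamine metabolism, 3 were called lower and 0 higher, beside 1.41% and 1.69% of all genes. Of 12 tested in ob/ob mice, 1 was called lower and 1 higher, beside 2.33% and 1.68% of all genes. Amd1 (chr10:40287458-40302186, minus strand), which makes the aminopropyl donor, had 42493 expected counts in lean GRf/f and 18582 in lean GRmKO muscle (-1.13 [-1.16, -1.11]). In ob/ob mice it had 8676 and 5099 counts (-0.77), so that the lean control was the highest of the 4 libraries. Odc1, the ornithine decarboxylase that opens the pathway, had 3714 and 1607 counts in the lean pair (-1.15) and 2389 and 1767 in the ob/ob pair (-0.43). Smox, which oxidises spermine, had 7054 and 2922 counts in the lean pair (-1.21) and 2125 and 1061 in the ob/ob pair (-1.0). Oaz1, the antizyme that has ornithine decarboxylase degraded, had 5677 and 6041 counts (0.15). The list's median was -0.18.

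For amino acid breakdown and export, 1 of 24 genes was called lower and 0 higher, beside 1.41% and 1.69% of all genes. Of the 24, 20 lay below the median gene, and the list's median was -0.22. The gene called was Glul (chr1:153899944-153909723, plus strand), the enzyme that makes glutamine for release from muscle. It had 13564 counts in lean GRf/f and 5954 in lean GRmKO muscle (-1.13 [-1.17, -1.08]), and 6814 and 3677 in ob/ob mice (-0.89). Gpt2, which makes alanine, had 7509 and 4605 counts in the lean pair (-0.64) and 5462 and 3565 in the ob/ob pair (-0.62). Slc38a2, a sodium-coupled amino acid transporter, had 3965 and 2659 counts (-0.52). The 2 pairs gave the same sign for 19 of the 24 genes. Of the 17 genes negative in lean mice, 14 were also negative in ob/ob mice. Of all genes tested in both pairs, whatever their lean sign, 56.2% were negative in ob/ob mice.

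The tested genes of the known machinery of muscle atrophy lay within 2-fold in lean mice, several of them on the lower side. Of 14 atrophy ubiquitin ligases, 21 FoxO and autophagy genes, 9 genes of the insulin-like growth factor system and 15 of the myostatin and activin pathway, 0 were called. With 1.41% of all genes called lower and 1.69% higher, few calls would fall in lists of this size. A count of 0 therefore does not set these lists apart. The median changes were -0.07, -0.04, 0.01 and -0.22. In the same order, 11, 15, 5 and 9 of the members lay below the median gene. Fbxo32, which encodes Atrogin1, had 4449 and 4250 counts (-0.01), and Trim63, which encodes MuRF1, had 5551 and 3763 (-0.50 [-0.56, -0.44]). Mstn, the growth inhibitor myostatin, had 1869 and 1048 counts (-0.77), and Foxo1, a transcription factor of atrophy, 1386 and 769 (-0.79). All 4 differed by less than 2-fold. In ob/ob mice Fbxo32 was at 0.69, Trim63 at -0.19, Mstn at -0.65 and Foxo1 at -0.83. Of 13 brakes on mTORC1, Ddit4 was called lower and Tsc1, a subunit of the complex that inactivates Rheb, higher, with 263 and 521 counts (1.05). Among all genes, 1.41% were called lower and 1.69% higher. Tsc1 fell just short of the limit with TMM scaling (0.997) and went the other way in ob/ob mice (-0.40).

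**Figure D3:**
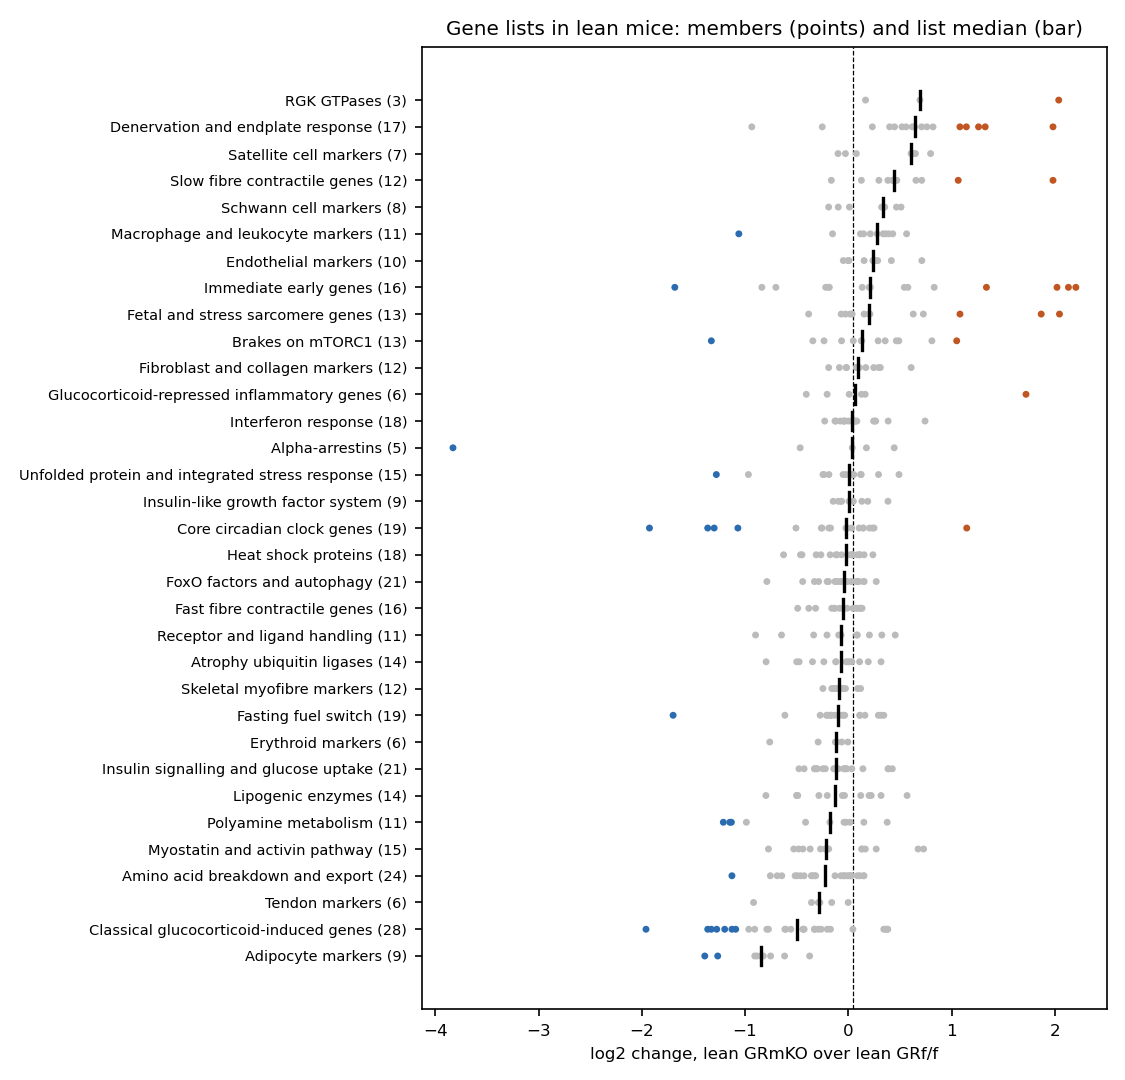
Log2 change of lean GRmKO over lean GRf/f for the tested members of 33 gene lists, with the number tested in brackets and a black bar at each list's median. Blue points were at least 2-fold lower, orange points at least 2-fold higher, and the dashed line is the median of all tested genes (0.04). The glucocorticoid-induced genes (-0.50) and the adipocyte markers (-0.85) lie farthest to the left, and the denervation and endplate genes (0.64) are near the top on the right.

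Several repressors of the clock were lower in lean GRmKO muscle. Of 19 clock genes, 4 were called lower (Per1, Per2, Nfil3 and Ciart) and 1 higher (Npas2), beside 1.41% and 1.69% of all genes, and the list's median was -0.02. Per1, a repressor of the clock loop that glucocorticoids induce, had 2199 and 820 expected counts in the lean pair (-1.36) and 1382 and 863 in the ob/ob pair (-0.68). Ciart, a repressor of CLOCK and BMAL1, had 297, 74.9, 74.8 and 59.9 counts in lean GRf/f, lean GRmKO, ob/ob GRf/f and ob/ob GRmKO muscle. Only the lean control was high, and the lean log2 change was -1.93 [-2.31, -1.55]. Nfil3, a repressor of clock-controlled genes, had 858 and 334 counts in the lean pair (-1.30) and 596 and 524 in the ob/ob pair (-0.18). Per2 had 673 and 307 counts in the lean pair (-1.07) and 330 and 298 in the ob/ob pair (-0.14), so only the lean control was high. Arntl, which encodes BMAL1, had 211 and 233 counts (0.21), and Nr1d1, its repressor, 4504 and 5078 (0.23). In ob/ob mice 0 of the 19 genes were called, where 2.33% of all genes were called lower and 1.68% higher. The hour of sampling was not given in the sources used here.

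Some immediate early genes were higher in lean GRmKO than in lean GRf/f muscle. Of 16 tested, 4 were called higher (Fos, Junb, Egr1 and Egr3) and 1 lower (Nr4a3), beside 1.69% and 1.41% of all genes. The list's median was 0.21, and 6 members were negative. Jun, the partner of Fos in AP-1, had 2358 and 3371 counts (0.58). Fos had 234 expected counts in lean GRf/f muscle and 982, 952 and 1362 in lean GRmKO, ob/ob GRf/f and ob/ob GRmKO muscle (2.13 in lean, 0.52 in ob/ob mice). Egr1 had 313 counts in lean GRf/f muscle and 1218, 1139 and 1165 in the other libraries in the same order (2.02 and 0.03). For both, the lean control library was low and the other 3 were alike. Junb had 498 and 1206 counts in the lean pair (1.34) and 622 and 743 in the ob/ob pair (0.26). Nr4a1, an orphan receptor gene, had 6953 and 3731 counts in the lean (-0.84) and 4412 and 3154 in the ob/ob pair (-0.48). Its relative Nr4a3 had 443 counts in lean GRf/f and 133 in lean GRmKO muscle (-1.68), and 353 and 399 in ob/ob mice. Of 13 inflammatory genes that glucocorticoids repress, 6 were tested and 1 was called higher. This was Ccl2, a chemokine that attracts monocytes, with 25.9 and 81.8 counts (1.72 [1.07, 2.41]). In ob/ob mice Ccl2 had 35.04 and 53.25 counts and was not called (0.60 [-0.04, 1.26]). The list's median was 0.07. Of 18 interferon-response genes and 18 heat shock genes 0 were called, and of 15 stress-response genes of the unfolded protein and integrated stress pathways only Chac1, which degrades glutathione, was called (2146 and 848 counts, -1.28). Chac1 had 407 and 326 counts in the ob/ob pair (-0.32), so both ob/ob libraries lay below lean GRmKO.

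Some sarcomere genes of fetal and slow muscle were higher in lean GRmKO muscle. Actc1 (chr2:114047282-114053548, minus strand), the actin of heart and developing skeletal muscle, had 17172 expected counts in lean GRf/f and 67910 in lean GRmKO muscle. It had 6504 and 64951 counts in ob/ob mice, so both GRmKO libraries were high and near each other. The log2 change was 2.04 [2.02, 2.07] in the lean and 3.32 in the ob/ob pair. Acta1, its close paralog and the main actin of adult muscle, had 842312 and 778355 counts (-0.05), and reads that fit both genes were divided by the authors' quantification. The other fetal genes called higher were Myl4, a light chain of atrial and fetal muscle, with 94.0 and 191 counts (1.08 in both backgrounds), and Myh3, the embryonic myosin heavy chain, with 22.1 and 77.2 counts (1.87). Myh3 had 142 counts in ob/ob GRf/f mice and was listed at 0 in ob/ob GRmKO mice. In all, 3 of 13 fetal and stress sarcomere genes were called higher and 0 lower, beside 1.69% and 1.41% of all genes. The list's median was 0.20 in the lean and -0.08 in the ob/ob pair, and 5 of the 13 lay below the median gene.

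Of 12 slow fibre genes, 2 were called higher and 0 lower, beside 1.69% and 1.41% of all genes. Of the 12, 11 lay above the median gene. The median change was 0.44 in the lean and 0.50 in the ob/ob pair. Sln encodes sarcolipin, an inhibitor of the calcium pump, and had 14, 53.0, 24.0 and 165 counts in lean GRf/f, lean GRmKO, ob/ob GRf/f and ob/ob GRmKO muscle (1.98 [1.11, 2.95] in lean mice). Tpm3, the slow tropomyosin, had 411 and 824 counts in the lean pair (1.06) and 1362 and 2381 in the ob/ob pair (0.81). Myh7, the slow myosin heavy chain, had 1308 and 1685 counts in the lean pair (0.43) and 5774 and 8763 in the ob/ob pair (0.60), so its level differed more between backgrounds than between genotypes. Of 16 fast fibre genes 0 were called, and Myh4, the main fast myosin, had 484058 and 415234 counts (-0.16). Mybph, a myosin-binding protein, had 6502 counts in lean GRf/f muscle and 14352, 11507 and 11736 in the other libraries in the same order (1.2 in lean, 0.03 in ob/ob mice).

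Genes of the denervation and endplate response lay on the higher side in lean GRmKO muscle. Of 17 tested, 5 were called higher (Chrna1, Colq, Ache, Myog and Sln) and 0 lower, beside 1.69% of all genes called higher. The median was 0.64, and 15 of 17 lay above the median gene. Chrna1 (chr2:73563215-73580338, minus strand), the acetylcholine receptor subunit that binds the transmitter, had 382 and 876 expected counts in lean and 681 and 1557 in ob/ob mice. The log2 changes were 1.26 [1.08, 1.44] and 1.19. Myog, the myogenic factor that switches such genes on, had 128, 271, 158 and 442 counts in lean GRf/f, lean GRmKO, ob/ob GRf/f and ob/ob GRmKO muscle (1.14 and 1.49). Both GRmKO libraries exceeded both controls. Ache, the acetylcholinesterase, had 431 and 873 counts in the lean pair (1.08) and 775 and 1410 in the ob/ob pair (0.86). Colq, the collagen anchor of Ache, had 107 and 258 counts in the lean pair (1.33) and 227 and 292 in the ob/ob pair (0.37). Neither was called in ob/ob mice. Myod1, another myogenic factor, had 637 and 937 counts (0.62).

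All 17 genes had the same sign in ob/ob as in lean mice, 15 positive and 2 negative. Of all genes tested in both pairs, whatever their lean sign, 43.8% were positive in ob/ob mice. The 2 negative endplate genes were Musk, the kinase that organises the endplate, with 305 and 153 counts (-0.93), and Dok7, its activator, with 324 and 261 (-0.25). In ob/ob mice 4 of the 17 were called higher and 0 lower, beside 1.68% and 2.33% of all genes, with a median of 0.73. The plot of the 17 genes shows the size of the counting error beside each change.

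**Figure D4:**
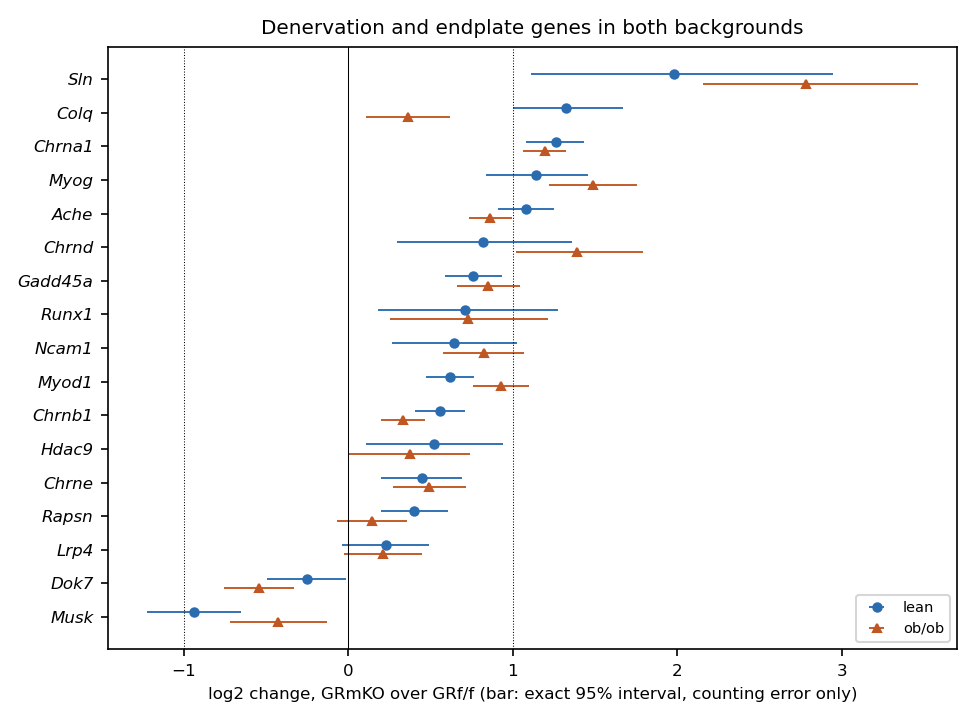
Log2 change of GRmKO over GRf/f for 17 denervation and endplate genes, in lean (blue circles) and ob/ob mice (orange triangles), with exact 95% intervals for counting error only. Dotted lines mark 2-fold. Sln, Colq, Chrna1, Myog and Ache lie beyond 2-fold in lean mice, and Musk and Dok7 lie below 0 in both backgrounds.

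The promoters of Ciart and Chrna1, a clock and an endplate gene chosen after their values were seen, were also read. The E-box CACGTG, the form that CLOCK and BMAL1 are known to bind, was in 8.04% of all 20389 promoter windows and at least 3 times in 0.113%. Ciart is among the latter. The E-box CAGCTG, a form known for myogenic factors, was in 15.7% of windows and at least 2 times in 1.63%, Chrna1 included. Both E-boxes read the same on either strand and do not overlap one another. The 250 bases before each start follow, with the E-boxes in capitals.
Ciart, chr3:95882229-95882478, minus strand: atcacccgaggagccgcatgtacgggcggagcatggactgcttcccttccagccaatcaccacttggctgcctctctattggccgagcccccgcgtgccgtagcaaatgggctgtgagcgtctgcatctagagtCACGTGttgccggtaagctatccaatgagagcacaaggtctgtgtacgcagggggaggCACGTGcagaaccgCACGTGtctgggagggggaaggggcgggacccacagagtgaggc
Chrna1, chr2:73580339-73580588, minus strand: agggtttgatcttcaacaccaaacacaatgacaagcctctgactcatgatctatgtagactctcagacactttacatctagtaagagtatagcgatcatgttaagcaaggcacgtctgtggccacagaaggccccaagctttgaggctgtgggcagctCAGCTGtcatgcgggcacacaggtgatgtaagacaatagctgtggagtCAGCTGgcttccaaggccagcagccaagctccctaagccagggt

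Among the other large increases were genes higher in both GRmKO libraries and genes that were low in the lean control library only. Tdrd7 (3.44) and Cldn15 (2.53) were neither, since they were called lower in ob/ob GRmKO mice. Rrad (chr8:104628070-104631327, minus strand), a small GTPase that dampens calcium channels, had 62.0, 244, 109 and 338 expected counts in lean GRf/f, lean GRmKO, ob/ob GRf/f and ob/ob GRmKO muscle. Both GRmKO values were above both controls, with log2 changes of 2.04 [1.63, 2.46] and 1.63. The other tested members of its family, Rem1 and Gem, differed by less than 2-fold (0.17 and 0.69). Ak4, a mitochondrial adenylate kinase, had 20 and 140 counts in lean and 56.8 and 207 in ob/ob mice (2.87 and 1.87). Rhno1, which acts in the DNA replication checkpoint, had 22.5 and 94.6 counts in the lean pair (2.13). Sytl2, a vesicle transport protein, had 121 and 373 counts in the lean pair and 105 and 584 in the ob/ob pair (1.69 and 2.48). By contrast, Zc3h11a, which takes part in mRNA export, had 198 counts in lean GRf/f and 1815, 1372 and 1702 in the other libraries (3.26 in lean, 0.31 in ob/ob mice). It overlaps Zbed6 on its strand. Trim39 (3.42), Mgat4a (3.12), Atat1 (2.56), Naa60 (2.48), Pxylp1 (2.46) and Slc52a3 (2.42) were likewise low in the lean control alone.

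The genes called in lean mice were then looked up in the ob/ob pair. Of 163 genes called lower in lean mice, 121 were tested in ob/ob mice. Of these, 91 had the same sign (75.2%), where 56.2% of all genes tested in both had that sign, and 35 were called lower in both (0.317% of 11034 genes) while 8 were called higher in ob/ob mice, where 1.68% of all genes were. The 35 were 21.5% of the lean and 13.3% of the ob/ob calls. Of the 195 genes called higher, 149 were tested in ob/ob mice, and 89 had the same sign (59.7%, beside 43.8% of all genes). In ob/ob mice 25 of the 149 were called higher, where 1.68% of all genes were. A further 15 were called lower there, where 2.33% of all genes were. The 25 were 12.8% of the lean and 13.2% of the ob/ob calls. The median lean change was -1.31 over the 163 lower genes and 1.29 over the 195 higher genes. Over those tested in the ob/ob pair, the median change there was -0.50 and 0.26. No test of these shares was made, and the lean values chose the genes.

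**Figure D5:**
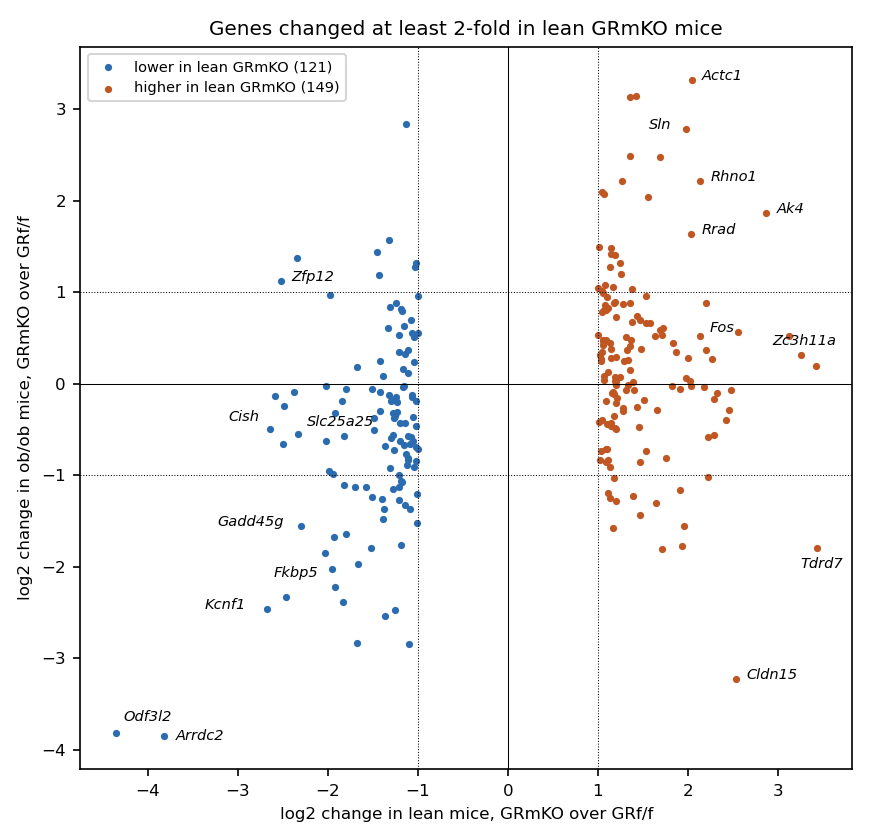
Log2 change of GRmKO over GRf/f in lean (horizontal axis) and ob/ob mice (vertical axis) for the 121 genes called lower (blue) and the 149 called higher (orange) in lean mice and tested in both. Arrdc2, Odf3l2, Fkbp5 and Kcnf1 lie low in both, Actc1, Sln, Rrad and Ak4 lie high in both, and Zfp12, Tdrd7 and Cldn15 are on opposite sides.

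Of the genes with a mean of at least 1000 counts over the 4 libraries, 18 were called lower in lean mice. All 18 had the same sign in ob/ob mice, beside 56.2% of all genes, and 9 were called lower there, beside 2.33%. They included Spns2, the exporter of sphingosine-1-phosphate, with 1962 and 849 counts in the lean pair (-1.15 and -1.32 in ob/ob mice), and Aldh1a1, which makes retinoic acid, with 1403 and 628 (-1.10 and -2.85). Tob2, an antiproliferative protein, had 4260 and 1651 counts (-1.31 and -0.92). The 5 called higher at that mean also had the same sign, beside 43.8% of all genes. Of these 1, Actc1, was called higher in ob/ob mice, beside 1.68% of all genes. Tmem52, a membrane protein below that mean, had 1160 and 352 counts in lean and 1689 and 432 in ob/ob mice (-1.66 and -1.97). In some genes a single library set the call. Among genes tested in both pairs, the lean GRf/f library alone lay at least 2-fold from the other 3, themselves within 2-fold, for 12 of the lower and 35 of the higher genes. The lean GRmKO library did so for 17 and 6.

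Markers of other cells also differed between the lean libraries. Of 9 tested adipocyte markers, 2 were called lower (beside 1.41% of all genes), all 9 lay below the median gene, and the median was -0.85 in the lean and -0.73 in the ob/ob pair. The 10 markers summed to 1211 CPM in lean GRf/f and 764 CPM in lean GRmKO muscle, and to 826 and 531 CPM in ob/ob mice, and none was at 0. Adipoq, the adiponectin gene, had 1691 and 962 counts (-0.75), Lep, the leptin gene, 294 and 117 (-1.26), and Cidec, a lipid droplet protein, 1462 and 535 (-1.39). The part of fat cells in lower genes such as Pcx, Scd1 and Aldh1a1, which fat also expresses, was not tested. Of the satellite cell, Schwann cell, endothelial and fibroblast markers 0 were called, with medians of 0.61, 0.33, 0.24 and 0.09. Of 11 macrophage and leukocyte markers 1 was lower (S100a9, 51.3 and 23.6 counts) and the median was 0.28. Tendon and erythroid markers, at -0.28 and -0.12, also had 0 called. In the ob/ob pair the medians of the satellite cell, macrophage, fibroblast and tendon markers were -0.27, -0.53, -0.65 and -1.13. There 5 of 6 tendon markers were called lower, beside 2.33% of all genes.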

How the data were processed

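RNA-seq of gastrocnemius was available as 1 library per group, each of pooled RNA from 3 mice. Per the submitters' processing notes and the methods, the authors filtered 100-bp reads, quantified protein-coding transcripts of mm10 with Salmon 1.2.1, and used tximport (lengthScaledTPM, R 3.5.0) for gene-level values. The deposited values are expected counts of 22252 gene names, not scaled between libraries. Strandedness was not given in the sources used here.

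Expected counts were scaled to CPM, and alternatively with edgeR 4.0.16 (TMM) and DESeq2 1.42.0 factors, used for scaling of rounded counts only. The authors' simulation of replicates was replaced by a rule of size, since 1 library per group allows no test. Ratio intervals are exact (Clopper-Pearson, scipy 1.17.1). Gene coordinates are from GENCODE on GRCm38, where all 22252 transcript IDs were found, and promoters from RefSeq.

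Named were Nr3c1, the 10 largest lean changes each way, the 10 largest in both backgrounds each way, up to 5 genes each way seen in 1 lean library only, and list members that were called or had the highest levels. Trim63, Musk, Dok7, Mt1, Slc10a6, Nr3c2, Foxo1, Arntl, Ybx2 and genes with at least 1000 counts were added after their values were seen. Genes and lists were chosen with earlier results of these data known. A result for 1 further gene under the naming rule is not reported here.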

Additional observations from a re-analysis of the deposited data

Results flagged for a closer look

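Zfp12, Tdrd7 and Cldn15, all named for their large lean change, went past 2-fold in opposite directions in the 2 backgrounds. The difference was not tested, since each group has 1 library. Zfp12, a zinc finger gene, had 232 and 38.8 expected counts in lean GRf/f and lean GRmKO muscle (-2.52) but 80.2 and 174 in ob/ob GRf/f and ob/ob GRmKO muscle (1.12), so the lean minus the ob/ob log2 change was -3.64. Tdrd7, a tudor domain protein of RNA granules, had 33.1 and 343 counts in the lean and 344 and 99.4 in the ob/ob pair, and its difference was 5.22. Cldn15, a tight junction protein, had 20.2 and 112 counts in the lean and 196 and 20.9 in the ob/ob pair, and its difference was 5.76. In each, 1 library of each genotype was high.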

How the results depend on the processing

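With 1 pooled library per side, only the choice of scaling and limits could be varied. No paired analysis was possible because each group has 1 library. Counts of genes moved by over 1.5 times only with the size of the limits, and are given as higher and lower. With at least 200 counts in 1 library, the lean pair had 63 and 77 genes, the ob/ob pair 84 and 123, and both together 14 and 19. At 1.5-fold these were 658 and 458, 561 and 960, and 119 and 151. At 4-fold they were 29 and 26, 31 and 31, and 2 and 4. Of the 358 lean calls, 342 were kept with TMM factors, 345 with DESeq2 size factors, 352 with upper quartile scaling and 357 when the top 50 genes were left out of the library size. These scalings shifted all lean changes by -0.05, -0.05, -0.02 and -0.004 on the log2 scale. Of the called genes among 208 named ones, 0 changed sign with any of them, while some uncalled genes near 0 did. Tsc1 lost its call with TMM factors (0.997), and Tsc22d3 gained one with TMM and DESeq2 factors.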

Other observations

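Some genes were listed at 0 in 1 lean library and well covered in the other 3. Prpf6, a splicing factor, had 563 expected counts in lean GRf/f, 867 in ob/ob GRf/f and 850.5 in ob/ob GRmKO muscle, and was listed at 0 in lean GRmKO muscle. Mdfic, a regulator of myogenic factors, had 394, 388 and 319 counts in the same libraries and was likewise listed at 0. In the other direction, Wdr41 had 476 counts in lean GRmKO muscle, 571 and 577 in the ob/ob pair, and was listed at 0 in lean GRf/f muscle. A value of 0 of this kind can be a failed estimate, so no fold is given. In all, 28 genes were listed at 0 only in lean GRf/f and 19 only in lean GRmKO muscle while the other 3 libraries had at least 50 counts. For the ob/ob libraries these numbers were 24 for GRf/f and 31 for GRmKO.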
